A study of Mus musculus with 15 samples.

Results

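The genes described here are 10 genes of MHC class I antigen presentation in the mouse: H2-K1, H2-D1, B2m, Tap1, Tap2, Tapbp, Psmb8, Psmb9, Erap1 and Nlrc5. They were taken by symbol from a table of 55487 genes, and all 10 were present and passed the filter on low counts. Gene coordinates are those of GENCODE M21 on GRCm38. The libraries came from polyA RNA of TTF cells (TTF commonly stands for tail-tip fibroblast) of female C57BL6/CAST hybrid mice. Cells with a SIRT7-KO genotype, called KO 2, KO 9 and KO 22 after the numbers in their titles, were compared with wild-type cells, called WT 1, WT 2 and WT 3. SIRT7 is a nuclear deacylase of the sirtuin family. All 6 libraries carry the same hybrid background and no treatment is given, and 9 further libraries that the labels list, with other genotypes or replicates, were not used here.

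MHC class I molecules show short peptides from inside the cell to CD8+ T cells. The peptides are cut by the proteasome, carried into the endoplasmic reticulum by the TAP transporter, trimmed there, and loaded onto a heavy chain paired with beta-2-microglobulin. Fibroblasts hold the pathway at a low level, and interferons raise its genes through STAT and IRF factors, NF-kB and the regulator NLRC5. The promoters of class I genes carry a kB site, an interferon-response site and an SXY module that ends in a CCAAT box.

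The upstream sequences of the chains themselves are shown as background, because H2-K1 and H2-D1 share these sites. Whether the sites bear on the levels of these genes was not tested. All come from RefSeq (GRCm38.p6), which gave a promoter window for 8 of the 10 genes. Capitals mark the kB letters GGGATTCCC, the interferon-response letters TTTCACTT, TTTCNNTTTC read on the other strand in B2m, the CRE-like letters TGACG and the CCAAT box read as ATTGG. The first line covers chr17:34000348-34000477 on the minus strand and the second chr2:122147537-122147685 on the plus strand.
H2-K1 upstream: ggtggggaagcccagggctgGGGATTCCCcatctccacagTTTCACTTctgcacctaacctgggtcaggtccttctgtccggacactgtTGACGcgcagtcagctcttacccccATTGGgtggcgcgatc
B2m upstream: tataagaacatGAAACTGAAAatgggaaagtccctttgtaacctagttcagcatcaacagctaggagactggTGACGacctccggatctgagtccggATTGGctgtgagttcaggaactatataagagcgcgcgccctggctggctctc
H2-K1 kB to interferon-response site: GGGATTCCCcatctccacagTTTCACTT
H2-D1 kB to interferon-response site: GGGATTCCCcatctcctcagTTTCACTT
H2-K1 CRE-like to CCAAT: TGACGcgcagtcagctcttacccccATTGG
H2-D1 CRE-like to CCAAT: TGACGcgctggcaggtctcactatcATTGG
B2m CRE-like to CCAAT: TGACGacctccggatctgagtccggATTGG

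The kB to interferon-response stretch of H2-D1, at chr17:35262924-35262951 on the plus strand, was identical to that of H2-K1 in 27 of 28 bases. The difference was A17T, counted from the 5′ end of the stretch with the base of H2-K1 first. The CRE-like letters and the CCAAT box lay the same distance apart in H2-K1, H2-D1 and B2m, although the bases between them differed. In the 30-base stretch H2-D1, at chr17:35262993-35263022, had 23 bases in common with H2-K1, and B2m, at chr2:122147609-122147638, had 13. Both stretches of H2-D1 lie before its RefSeq start but inside exons of the GENCODE gene, which begins further upstream. Searched on both strands of 32851 RefSeq windows of 300 bases, the kB letters occurred in 0.353% and the interferon-response letters in 1.6%. The paired letters TTTCNNTTTC occurred in 3.44%, TGACG in 20.8%, and TGACG and ATTGG with 20 bases between them in 0.0944%. TTTCACTT was also found in the window of Erap1, where it overlaps TTTCNNTTTC. TGACG was also found in the windows of Tap1 and Psmb9, which overlap, and it was the same site in both. These letters were chosen with the sequences in view, and a match is a description of the reference sequence, not a measured binding site.

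Genes were compared between knockout and wild type by edgeR's quasi-likelihood test, and a gene was called at an adjusted p (Benjamini-Hochberg) under 0.05. That test called 6.73% of the 16678 tested genes, with 3.54% higher and 3.19% lower in knockout. Of the 10 presentation genes it called 0. At an unadjusted p under 0.05 stood 6 of the 10, beside 26.3% of all tested genes, and all 6 had adjusted p-values from 0.05 to 0.12. DESeq2, run on the same counts, called 4 of the 10 (H2-D1, B2m, Tapbp and Erap1), beside 17.8% of all genes it gave an adjusted p. The median log2 fold change, knockout minus wild type, was 0.62 over the 10 genes and 0.02 over all tested genes. It was above 0 for 8 of the 10, beside 51.6% of all tested genes. Every knockout library exceeded every wild-type library for 6 of the 10 (H2-D1, B2m, Tapbp, Psmb9, Erap1 and Nlrc5), beside 15.7% of all tested genes. Every knockout library was below every wild-type library for Tap2, beside 20.2% of all tested genes, and the groups overlapped for H2-K1, Tap1 and Psmb8. Psmb9 passed the filter on low counts mainly through knockout, where it was higher, so the counts over the 10 genes are a description. Over the 9 others, 5 had an unadjusted p under 0.05, the same number lay above wild type without overlap, and the median log2 fold change was 0.54. Nlrc5, still among these 9, reached 10 counts in all 3 knockout libraries but in only 2 wild-type ones, so these counts too are a description.

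Knockout libraries differed from each other more than wild-type libraries did. The biological coefficient of variation was 0.379 in knockout and 0.136 in wild type, and total gene counts lay between 61065582 and 61506413 in all 6. Sirt7 itself was not called as a gene (10.8 ± 2.27 CPM in knockout, 13.8 ± 4.15 in wild type, SD, n = 3 each; log2 fold change -0.31, adjusted p = 0.515 by edgeR), and its coding transcripts gave no uniform picture. Sirt7-201 stood at 2, 0 and 0 in KO 2, 9 and 22, against 53, 58 and 159 in WT 1, 2 and 3, whereas another coding transcript of the gene was estimated at 60, 129 and 0 in KO 2, 9 and 22, against 118, 11 and 68 in WT 1, 2 and 3. Coding Sirt7 counts thus remained in KO 2 and KO 9. Wild-type libraries are labelled as replicates, with no word on separate animals or cultures, and whether each knockout is a clone is not stated, so the p-values here reflect spread among libraries that may be technical. Fibroblast markers also set libraries apart. Thy1 had 1319, 12 and 4375 counts in KO 2, 9 and 22, against 6170, 6058 and 6086 in WT 1, 2 and 3. Pdgfra had 578, 698 and 4975 counts in KO 2, 9 and 22, against 4189, 4670 and 4518 in WT 1, 2 and 3, and Dcn 11871, 1010 and 8868 in KO 2, 9 and 22, against 8070, 7224 and 7836 in WT 1, 2 and 3. KO 9 was thus low in these 3 markers and KO 2 in Thy1 and Pdgfra. Other fibroblast markers went the other way. Fn1 had 155547, 440326 and 172685 counts in KO 2, 9 and 22, against 85695, 82241 and 83892 in WT 1, 2 and 3. Vim had 243278, 322206 and 182323 counts in KO 2, 9 and 22, against 155268, 161389 and 164656 in WT 1, 2 and 3. Of all 14 fibroblast markers, 9 had a log2 fold change above 0 and 5 below. KO 2 and KO 9 were also higher than KO 22 in H2-D1, Tap1, Erap1 and Nlrc5. The part of this in the values of the 10 genes was not tested. Knockout libraries occur in the labels in 2 sets, those titled as replicates in the manner of the wild-type libraries and those titled by number. The knockout columns were matched by their numbers to those titled by number, so set and genotype cannot be told apart, and whether they hold the other set instead is not settled. In bulk RNA, fewer cells that express a gene and less RNA per cell cannot be told apart.

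**Figure D1:**
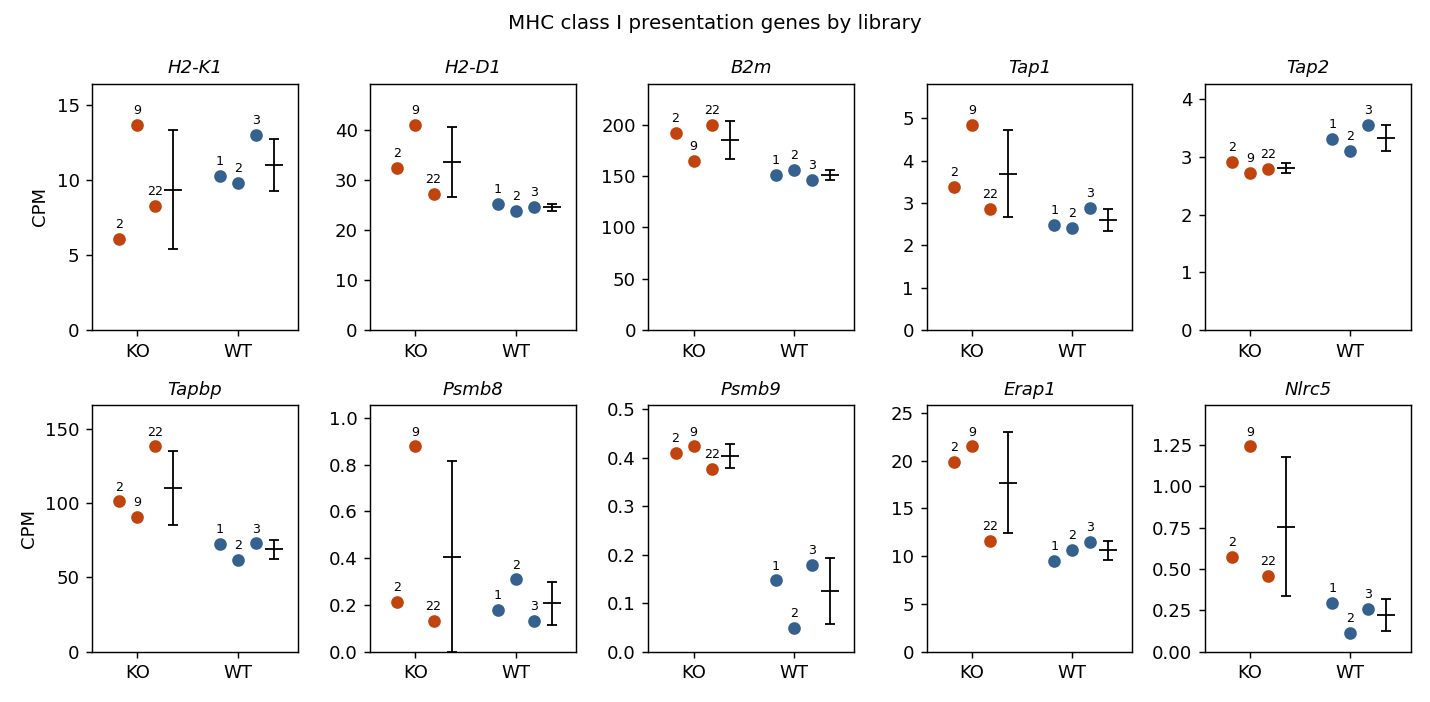
CPM (counts scaled to 1e6 gene counts per library) of each of the 10 genes, knockout on the left (orange) and wild type on the right (blue), each point labelled with its library number; black bars give the mean and SD of 3 libraries, and each panel has its own scale from 0. KO 9 is the highest knockout library for H2-K1, H2-D1, Tap1, Psmb8 and Nlrc5, and KO 22 for B2m and Tapbp.

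Of the class I chains, H2-D1 and B2m were higher in every knockout library and H2-K1 was not. H2-D1, a classical heavy chain (ENSMUSG00000073411, chr17:35262730-35267499), had 1976, 2523 and 1667 counts in KO 2, 9 and 22, against 1539, 1457 and 1509 in WT 1, 2 and 3. That is 33.5 ± 6.98 CPM in knockout and 24.5 ± 0.74 in wild type (SD, n = 3 each), a log2 fold change of 0.48 (SE 0.16, edgeR adjusted p = 0.117). That p was 0.0406 without KO 22 and 0.133 to 0.321 without any other library, and the log2 fold change fell to 0.31 without KO 9. The wild-type libraries lay close together, and KO 22 stood nearest to them. H2-K1, the other classical heavy chain (ENSMUSG00000061232, chr17:33996017-34000347), had 371, 845 and 507 counts in KO 2, 9 and 22, against 626, 601 and 798 in WT 1, 2 and 3. Here KO 9 lay above and the other knockout libraries below all wild-type ones. The log2 fold change was -0.20 (SE 0.31, edgeR adjusted p = 0.733), and its sign changed without KO 2 (0.04).

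The balance between the heavy chains can be read per kilobase of exon. Here and below, exon length counts the bases of all annotated transcripts of a gene, those with retained introns included. It can thus place genes with many such transcripts too low beside other genes. H2-K1 made up 14.1%, 22.7% and 21.1% of the summed H2-K1 and H2-D1 level in KO 2, 9 and 22, against 26.3%, 26.6% and 31.7% in WT 1, 2 and 3. Every knockout library thus lay below every wild-type one in this share. The exact two-sided permutation test of 3 libraries against 3 cannot go below p = 0.10 and was not used. B2m, the light chain that every class I heavy chain needs (ENSMUSG00000060802, chr2:122147686-122153083), had 11711, 10119 and 12228 counts in KO 2, 9 and 22, against 9228, 9575 and 8998 in WT 1, 2 and 3. Among the 10 genes it was the most abundant, at 185 ± 18.5 CPM in knockout and 151 ± 4.81 in wild type (SD, n = 3 each). Its log2 fold change was 0.33 (SE 0.10, edgeR adjusted p = 0.104), and that p was 0.0405 without KO 9 and 0.122 to 0.328 without any other library.

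The subunits of the peptide transporter had log2 fold changes on opposite sides of 0, and neither was called. Tap1 (ENSMUSG00000037321, chr17:34187553-34197225) had 206, 298 and 175 counts in KO 2, 9 and 22, against 152, 148 and 178 in WT 1, 2 and 3. KO 22 fell among the wild-type libraries, and the log2 fold change was 0.54 (SE 0.25, edgeR adjusted p = 0.225). Tap2, its partner (ENSMUSG00000024339, chr17:34203527-34216321), had 178, 168 and 171 counts in KO 2, 9 and 22, against 203, 191 and 219 in WT 1, 2 and 3. All knockout libraries were below all wild-type ones by a small amount, with a log2 fold change of -0.21 (SE 0.17, edgeR adjusted p = 0.471). Per kilobase, Tap1 stood at 79.9%, 122% and 70.7% of the level of Tap2 in KO 2, 9 and 22, against 51.7%, 53.5% and 56.1% in WT 1, 2 and 3. The ratio was higher in every knockout library than in any wild-type one, and it was not tested.

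Tapbp, or tapasin, which bridges TAP and the empty heavy chain, had the lowest adjusted p of the 10 genes. It (ENSMUSG00000024308, chr17:33915899-33929292) had 6172, 5565 and 8440 counts in KO 2, 9 and 22, against 4435, 3786 and 4480 in WT 1, 2 and 3. The groups did not overlap, and KO 22 was the highest library. The mean was 110 ± 24.9 CPM in knockout and 69 ± 6.4 in wild type (SD, n = 3 each), a log2 fold change of 0.70 (SE 0.18, edgeR adjusted p = 0.0709). The adjusted p was 0.00694 by DESeq2, 0.0444 without KO 22, and 0.0524 to 0.243 without any other library. Tapbp shares 149 exonic bases with Zbtb22 on its own strand and 904 with Gm19412 on the other strand. Neither of these neighbours was called (log2 fold changes -0.08 and -0.25), and both had fewer counts than Tapbp in every library.

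The inducible proteasome subunits were close to the floor of detection in both groups. Psmb8 (ENSMUSG00000024338, chr17:34197721-34201454), which takes the place of Psmb5 in the immunoproteasome, had 13, 54 and 8 counts in KO 2, 9 and 22, against 11, 19 and 8 in WT 1, 2 and 3. Its fitted level was 2.01 times that of wild type (SE of the log2 fold change 0.76, edgeR adjusted p = 0.45). That value rested on KO 9, and without it the log2 fold change was -0.24. Psmb9 (ENSMUSG00000096727, chr17:34181987-34187764), which takes the place of Psmb6, had 25, 26 and 23 counts in KO 2, 9 and 22, against 9, 3 and 11 in WT 1, 2 and 3. Knockout libraries were close to each other and all above wild type, with a log2 fold change of 1.70 (SE 0.47, edgeR adjusted p = 0.0796). Only 1 wild-type library reached 10 counts. Per kilobase, with retained introns in the exon length, Psmb8 reached at most 0.121% of Psmb5 and Psmb9 at most 0.184% of Psmb6 in any library.

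Reads of Psmb9 and Tap1 cannot be fully separated in these tables. They lie head to head, with RefSeq starts 225 bases apart and 212 shared exonic bases in GENCODE M21. Psmb9 counts were assigned to the coding transcript in an uneven way, with 24, 12 and 0 in KO 2, 9 and 22, against 0, 0 and 4 in WT 1, 2 and 3, and most of the rest went to transcripts with retained introns. The coding counts of Psmb8 were 0, 41 and 0 in KO 2, 9 and 22, against 8, 11 and 8 in WT 1, 2 and 3. For Tap1 the coding transcripts held 125, 220 and 74 counts in KO 2, 9 and 22, against 98, 85 and 129 in WT 1, 2 and 3. The groups therefore overlapped at the level of coding transcripts for all 3 of these neighbours. Such counts are estimates, since most reads fit several transcript of a gene.

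Erap1, the aminopeptidase that trims peptides in the endoplasmic reticulum (ENSMUSG00000021583, chr13:74639568-74693201), had 1218, 1319 and 711 counts in KO 2, 9 and 22, against 578, 658 and 706 in WT 1, 2 and 3. KO 22 exceeded WT 3 by only a few counts, and the other knockout libraries lay well above. The mean was 17.7 ± 5.3 CPM in knockout and 10.6 ± 1.02 in wild type (SD, n = 3 each), a log2 fold change of 0.77 (SE 0.24, edgeR adjusted p = 0.10), and that p was 0.0114 without KO 22 and 0.171 to 0.308 without any other library. With the chromosome median taken out the log2 fold change was 0.57 (edgeR adjusted p = 0.218). Erap1 shares 834 exonic bases with Cast, the calpain inhibitor calpastatin, on the opposite strand. Cast had 11403, 16222 and 10996 counts in KO 2, 9 and 22, against 8819, 8975 and 9038 in WT 1, 2 and 3 (log2 fold change 0.56, edgeR adjusted p = 0.0817). The sources used here do not say if strand was used in counting, so the part of Cast reads in the Erap1 counts cannot be told apart.

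Nlrc5, the NLR-family protein that drives transcription of class I genes through their SXY module (ENSMUSG00000074151, chr8:94434356-94527272), had 35, 76 and 28 counts in KO 2, 9 and 22, against 18, 7 and 16 in WT 1, 2 and 3. The groups did not overlap, and KO 9 was the highest library. Its log2 fold change of 1.78 was the largest of the 10 (SE 0.53, edgeR adjusted p = 0.0957). At 0.756 ± 0.42 CPM in knockout and 0.223 ± 0.096 in wild type (SD, n = 3 each) it was also the least abundant per kilobase of exon.

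**Figure D2:**
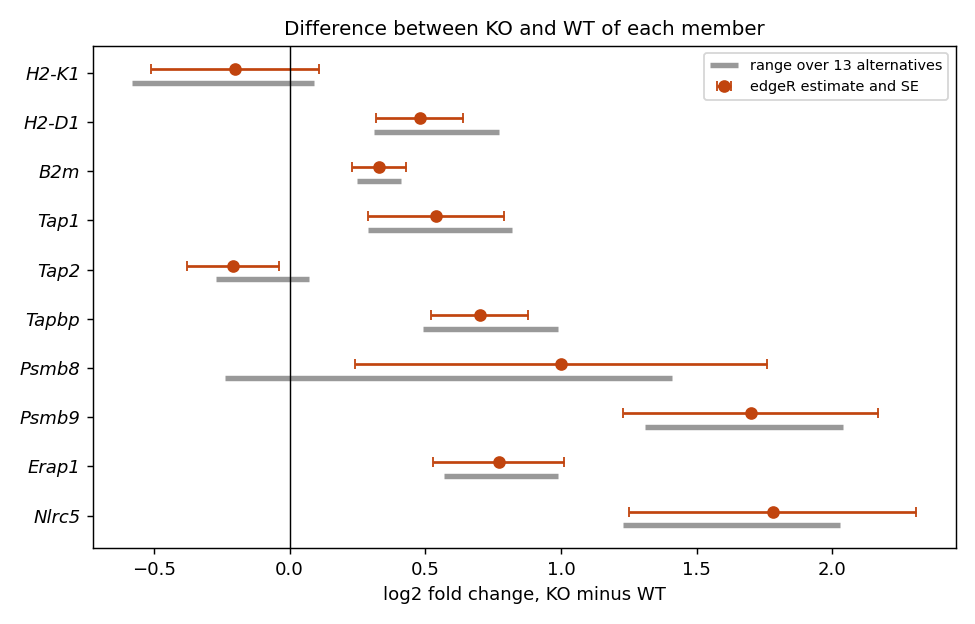
Log2 fold change of each gene, knockout minus wild type, from edgeR with its SE (orange), and the range over 13 alternatives of scaling, filter, tool or left-out library (grey). The range spans 0 for H2-K1 (-0.58 to 0.09), Tap2 (-0.27 to 0.07) and Psmb8 (-0.24 to 1.41) and stays above 0 for the other genes.

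Scaled by exon length, the genes spanned several orders of magnitude. In CPM per kilobase, knockout averaged 216 for B2m, 30.3 for Tapbp, 13 for H2-D1, 3.19 for H2-K1, 2.43 for Erap1, 0.744 for Tap2, 0.674 for Tap1, 0.12 for Psmb8, 0.11 for Psmb9 and 0.089 for Nlrc5. Wild type had the same order, with 176 for B2m, 19 for Tapbp, 9.49 for H2-D1, 3.75 for H2-K1, 1.45 for Erap1, 0.881 for Tap2, 0.474 for Tap1, 0.0611 for Psmb8, 0.0342 for Psmb9 and 0.0263 for Nlrc5. The knockout libraries of Tap2 and Tap1 overlapped each other (0.723 to 0.771 and 0.522 to 0.885), as did those of H2-K1 and Erap1 (2.07 to 4.68 and 1.6 to 2.95). The knockout libraries of Psmb8, Psmb9 and Nlrc5 overlapped as well, so in knockout these neighbours in the order did not differ beyond their spread. In wild type Tap2 (0.823 to 0.942) and Tap1 (0.44 to 0.528) did not overlap, nor did H2-K1 (3.33 to 4.42) and Erap1 (1.3 to 1.58).

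The profiles of the genes over the libraries were alike for some and not for others. Over 6 libraries, which include the group difference, Pearson's r of a gene's log2 CPM with the mean standardised profile of the other 9 was 0.97 for Nlrc5, 0.95 for Tap1 and 0.94 for H2-D1. It was 0.83 for Erap1, 0.82 for Psmb9, 0.47 for Psmb8, 0.42 for Tapbp and 0.26 for B2m. H2-K1 was at -0.08 and Tap2 at -0.77. KO 9 was the highest of the knockout libraries for the genes with the highest r, and lowest for B2m, Tapbp and Tap2. The genes outside the set whose profiles were most like its mean were Galns, a lysosomal sulfatase (r = 0.9943), Schip1 (0.9939), Ceacam1, a cell adhesion molecule (0.9928), Gm13135 (0.9919) and Gm37800 (0.9899), over the same 6 libraries. None of these 5 was called, and their log2 fold changes lay between 0.30 and 1.75.

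Most of the 10 genes lie together on chromosome 17, whose genes were on the whole lower in knockout. Tapbp, H2-K1, Psmb9, Tap1, Psmb8, Tap2 and H2-D1 lie in the major histocompatibility complex, in the 1.35 Mb of chr17:33915899-35267499. In that interval the 72 other tested genes had a median log2 fold change of -0.31, with 0 called higher, 7 called lower and 77.8% below 0. The 7 presentation genes there had a median of 0.54, with 2 below 0. The remaining 836 tested genes of chromosome 17 had a median of -0.29, so H2-K1 and Tap2 stood near the level of their chromosome and the other 5 above it. With the chromosome median taken out, Tapbp was called (log2 fold change 0.99, edgeR adjusted p = 0.039), beside 3.98% of all tested genes, while H2-K1 (0.09) and Tap2 (0.07) turned to the other side of 0. B2m, Nlrc5 and Erap1 lie on chromosomes 2, 8 and 13, whose other genes had medians of -0.08, 0.20 and 0.20. The part of these chromosome-wide shifts in the values of the 10 genes was not tested beyond this alternative.

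**Figure D3:**
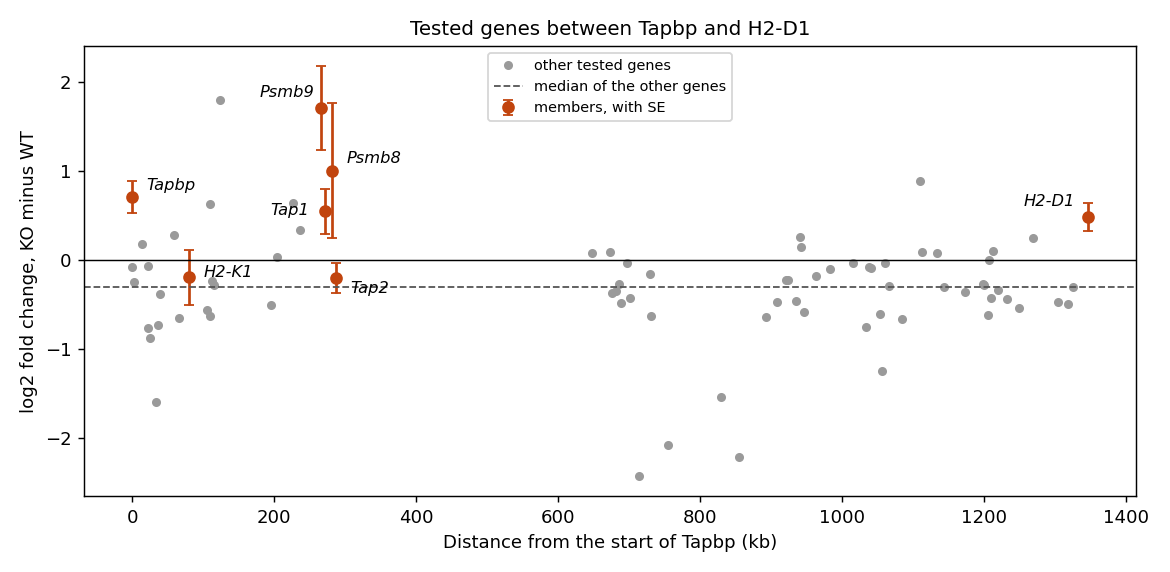
Log2 fold change, knockout minus wild type, of the tested genes between Tapbp and H2-D1, against the distance in kb from the start of Tapbp. The presentation genes are orange with their SE, the 72 other genes grey, and the dashed line is the median of the grey points at -0.31; Tapbp, Psmb9, Psmb8, Tap1 and H2-D1 lie above 0 where most grey points lie below it.

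Since the cells were hybrids, part of the reads could be assigned to the C57BL6 or CAST copy. The table calls the copies genome 1 and genome 2, and the sources used here do not say which strain is which. The allelic ratio was tested for the 7 genes with a mean of at least 20 assigned counts per library, and Psmb8, Psmb9 and Nlrc5 had too few. H2 genes differ much between strains and reads of the copies may map unevenly, so a share by itself is a description of these counts. The split counts of a gene, unassigned reads included, came to 98.1% to 99.6% of its count from all reads for H2-D1, 85.5% to 120% for H2-K1, 105% to 157% for Tap1 and 90.2% to 138% for Tapbp. Intervals below cover counting error only.

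H2-D1 was the only 1 of these 7 genes called in the allelic test, beside 23% of the 12984 genes tested. Genome 1 held 50.7%, 39% and 35.6% of its assigned counts in KO 2, 9 and 22, against 24%, 27.6% and 22% in WT 1, 2 and 3. The log2 ratio of genome 1 to genome 2 was higher in knockout by 1.14 (SE 0.30, edgeR adjusted p = 0.0419). Counts of the genome 1 copy were 284, 277 and 171 in KO 2, 9 and 22, against 105, 108 and 108 in WT 1, 2 and 3. The genome 2 copy had 276, 433 and 310 counts in KO 2, 9 and 22, against 332, 284 and 382 in WT 1, 2 and 3, so the groups separated for the first copy and overlapped for the other. The call was lost when KO 2, KO 9 or any of the wild-type libraries was left out, with adjusted p-values between 0.0509 and 0.143, and held without KO 22 (adjusted p = 0.0405 by edgeR).

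The copies of H2-K1 went the opposite way in the counts. Its genome 1 copy had 0, 35 and 0 counts in KO 2, 9 and 22, against 67, 38 and 62 in WT 1, 2 and 3. The genome 2 copy had 123, 290 and 142 counts in KO 2, 9 and 22, against 102, 129 and 266 in WT 1, 2 and 3. The share of genome 1 was 0% of 123 assigned counts in KO 2, which allows up to 2.44%, 10.8% (95% Wilson interval 7.85% to 14.6%) in KO 9, and 0% of 142 in KO 22, which allows up to 2.11%. In WT 1, 2 and 3 it was 39.6%, 22.8% and 18.9%. The groups did not overlap, and the log2 ratio was lower in knockout by a fitted -3.50 (SE 1.34, edgeR adjusted p = 0.121), a value that depends on how counts of 0 are handled. With chromosome medians taken out limma gave an adjusted p of 0.438. Without KO 9 the ratio of H2-K1 was called (edgeR adjusted p = 0.0115). No fold is given there, since the remaining knockout libraries were both at 0. Chromosome 17 as a whole stood at 51.5%, 33.8% and 49.4% genome 1 in KO 2, 9 and 22, against 55.5%, 55.6% and 55.7% in WT 1, 2 and 3. The shares of H2-K1 thus differed from that of the chromosome in every library.

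B2m was read almost wholly as genome 1 in both groups. Its share was 99.7%, 99.8% and 99.8% in KO 2, 9 and 22, against 99.9%, 99.6% and 99.6% in WT 1, 2 and 3, with between 4448 and 6159 assigned counts behind each value. Chromosome 2 as a whole stood at 62.3%, 51.9% and 58.8% genome 1 in KO 2, 9 and 22, against 60%, 59.9% and 60% in WT 1, 2 and 3. A copy that is silent and a copy whose reads were not assigned give the same share in this table. Among assigned counts, the difference in B2m between the groups was therefore almost all in genome 1. Its genome 1 counts were 6073, 5000 and 6144 in KO 2, 9 and 22, against 4688, 4808 and 4432 in WT 1, 2 and 3. Counts assigned to neither copy were also higher in knockout, at 4975, 4528 and 5417 in KO 2, 9 and 22, against 4055, 4213 and 3952 in WT 1, 2 and 3.

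Tapbp counts assigned to a copy were higher in knockout for both copies, and more so for genome 2. Genome 2 had 2145, 1756 and 2247 counts in KO 2, 9 and 22, against 886, 926 and 1061 in WT 1, 2 and 3. Genome 1 had 1307, 1620 and 1204 counts in KO 2, 9 and 22, against 1044, 918 and 1115 in WT 1, 2 and 3. Counts of Tapbp assigned to neither copy overlapped between the groups. They were 5082, 2813 and 4159 in KO 2, 9 and 22, against 3216, 3140 and 3327 in WT 1, 2 and 3. The genome 1 share was 40.3% ± 6.86 in knockout and 51.7% ± 2.19 in wild type (SD, n = 3 each), and the difference in the log2 ratio was -0.68 (SE 0.24, edgeR adjusted p = 0.0949). Without KO 9, the knockout library with the highest genome 1 share, it was -0.91 (edgeR adjusted p = 0.00713), and with chromosome medians taken out limma gave -0.01 (adjusted p = 0.994). Erap1 averaged 55.1% in knockout and 61.4% in wild type (log2 ratio -0.37, adjusted p = 0.291 by edgeR). Tap1 averaged 8.59% in knockout and 13.2% in wild type, and Tap2 18.9% in knockout and 20.6% in wild type, with adjusted p-values of 0.504 and 0.848 by edgeR. Genome 1 was thus the smaller copy of both TAP genes in all 6 libraries, under the share of chromosome 17.

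**Figure D4:**
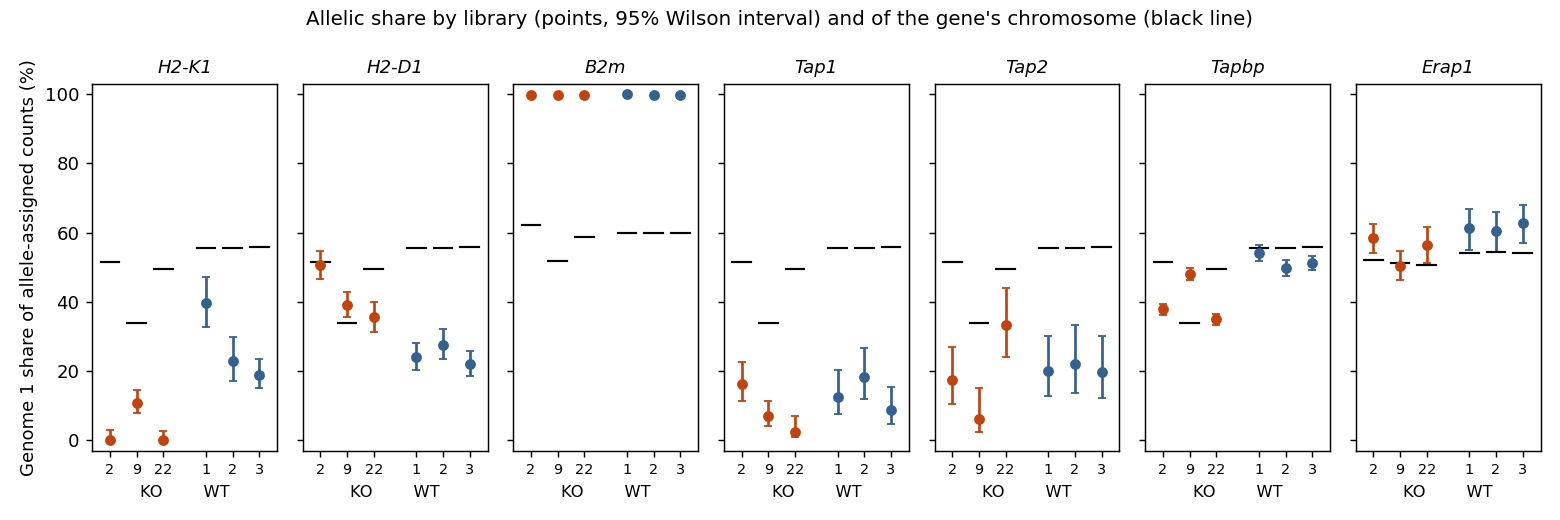
Share of allele-assigned counts from genome 1 in each library for the 7 genes tested, knockout (orange) left of wild type (blue), with 95% Wilson intervals; the black line is the share over the gene's chromosome in that library. H2-D1 lies higher in knockout (35.6% to 50.7%) than in wild type (22% to 27.6%), H2-K1 lower, and B2m stays at 99.6% or more in all 6 libraries.

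For the steps around these genes, the counts of calls are to be read beside the 6.73% called over all tested genes, a share at which lists of this size hold about 0 or 1 call. Of 11 tested genes of peptide loading and endoplasmic reticulum folding 0 were called, with a median log2 fold change of 0.17. Calr (0.33), Pdia3 (0.31), Canx (0.18) and the tapasin relative Tapbpl (0.42) had adjusted p-values of at least 0.111 in edgeR. Of 6 proteasome activators and immunoproteasome partners 0 were called, among them Psmb10 (0.19), the third inducible subunit, and the activators Psme1 (0.03) and Psme2 (-0.15). The 14 constitutive proteasome subunits had a median of -0.15 and 0 calls, and Psmb5 (-0.38, edgeR adjusted p = 0.0932) and Psmb6 (-0.18) were among them. The 10 cytosolic and endosomal peptidases had a median of 0.06 and 0 calls.

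Every gene named as called in the lists of other class I chains, regulators, ligands and cell markers lost its call in edgeR when any of the wild-type libraries was left out (adjusted p-values of 0.0816 to 0.197). Of 15 tested genes of other class I and class I-like chains 1 rose and 0 fell. It was Cd1d1, which presents lipids to NKT cells, with 54, 106 and 134 counts in KO 2, 9 and 22, against 9, 8 and 14 in WT 1, 2 and 3 (log2 fold change 3.27, SE 0.46, edgeR adjusted p = 0.0172). Knockout libraries were all far above wild type. In wild type only WT 3 reached 10 counts, so Cd1d1 passed the filter on low counts mainly through knockout, where it was higher. The nonclassical chains H2-T23 (0.05) and H2-Q4 (-0.91, edgeR adjusted p = 0.417) were not called, and H2 family members resemble each other, so reads may be split between them. H2-M3, which presents formylated peptides, had 85, 113 and 0 counts in KO 2, 9 and 22, against 4, 8 and 2 in WT 1, 2 and 3, and did not pass the filter on low counts. Of the class II genes 4 were tested and 0 called. The chains H2-Aa and H2-Ab1 were at 0 in all 6 libraries, and the invariant chain Cd74 had 156, 251 and 50 counts in KO 2, 9 and 22, against 35, 26 and 27 in WT 1, 2 and 3 (log2 fold change 2.40, edgeR adjusted p = 0.0592).

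Of 18 tested transcription factors linked to class I promoters 0 rose and 1 fell. That gene was Rela, a subunit of NF-kB (log2 fold change -0.51, SE 0.11, edgeR adjusted p = 0.0427). With the chromosome median taken out it was -0.30 (adjusted p = 0.169 by edgeR), and without KO 9 the adjusted p was 0.0522. Stat2 had 1365, 1431 and 923 counts in KO 2, 9 and 22, against 782, 615 and 672 in WT 1, 2 and 3, without overlap (log2 fold change 0.87, SE 0.20, edgeR adjusted p = 0.051). The adjusted p of Stat2 was 0.00118 by DESeq2. In edgeR it was 0.0137 without KO 22, 0.0832 to 0.207 without any other library, and 0.104 with the chromosome median taken out. Irf9 (0.39), Irf2 (0.10), Irf1 (-0.20), the SXY-binding Rfx5 (-0.34) and the Polycomb methyltransferase Ezh2 (0.03) had adjusted p-values of at least 0.344 in edgeR. Without KO 22, Irf9 was called (edgeR adjusted p = 0.0316). Among 11 interferon receptors, kinases and their inhibitors, the kinase Tyk2 rose (0.56, edgeR adjusted p = 0.0325) and the inhibitor Socs3 fell (-0.78, adjusted p = 0.0394). Tyk2 was not called with the chromosome median taken out (0.39, adjusted p = 0.0929 by edgeR), nor Socs3 without KO 2 (adjusted p = 0.058) or without KO 9 (0.0629). Usp18, an interferon-induced brake on this signalling, had 208, 384 and 29 counts in KO 2, 9 and 22, against 26, 19 and 32 in WT 1, 2 and 3 (log2 fold change 3.03, edgeR adjusted p = 0.0836). KO 22 lay among the wild-type libraries for Usp18, and KO 9 was highest, the same order of knockout libraries as for Nlrc5, Tap1, H2-D1 and Cd74. B2m and Tapbp had the reverse order, H2-K1 and Tap2 had other orders, and a shared order was not tested.

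Of 9 tested ligands of NK and T cells 0 rose and 2 fell. Those were Nectin2 and Pvr, each with a log2 fold change of -0.56 (edgeR adjusted p = 0.0224 and 0.0458). Pvr was not called with the chromosome median taken out (adjusted p = 0.069 by edgeR), without KO 2 (0.061) or without KO 9 (0.0661). Cd274, which encodes PD-L1, averaged 0.479 CPM in knockout and 0.489 in wild type.

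The labelled cell type was checked against marker lists. All 14 fibroblast markers were tested, of which 3 rose (Col1a2, Col1a1 and Col3a1, log2 fold changes 1.25, 0.93 and 1.10, edgeR adjusted p = 0.0104, 0.0175 and 0.0408) and 0 fell. Of 14 blood cell markers 11 had at most 20 counts in every library, and their summed level was 20 to 29.9 CPM in knockout and 15.4 to 16.4 in wild type. Ptprc, the pan-leukocyte marker, had 2, 0 and 0 counts in KO 2, 9 and 22, against 1, 0 and 0 in WT 1, 2 and 3, while Lyz2 had 566, 529 and 1375 counts in KO 2, 9 and 22, against 380, 376 and 333 in WT 1, 2 and 3. Few counts came from the 7 endothelial and 8 keratinocyte markers, of which 6 and 7 had at most 20 counts and 0 were called. Of the muscle markers Acta1 rose (2.11, edgeR adjusted p = 0.0158), and of the Schwann cell and melanocyte markers Mitf fell (-1.36, adjusted p = 0.0329). The part of these differences between libraries in the values of the presentation genes was not tested.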

How the data were processed

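RNA extracted with TRIZOL was polyA-selected and sequenced at a company, per the labels' protocols. Among the tools named, StringTie 1.3.3, HISAT2 2.1.0 and Trimmomatic 0.36 are given without their roles, per the submitters' processing notes, as are the builds GRCm38 and mm10. The deposited tables hold estimated counts of all reads by gene and by transcript, and by gene for reads assigned to genome 1, genome 2 or neither. The sources used here do not state counter settings, strand or annotation. The values were whole numbers. Knockout columns were matched to the titles with the numbers 2, 9 and 22 after the data were seen.

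Genes were named and placed by GENCODE M21 (55227 of 55487 matched). edgeR 4.0.16 (R 4.3.3) with its quasi-likelihood test, TMM scaling, filterByExpr and Benjamini-Hochberg adjustment compared 3 knockout with 3 wild-type libraries. SE is the absolute log2 fold change over the square root of F, and CPM is per 1e6 gene counts. Allelic ratios were tested in edgeR by the interaction of allele and group, with library terms. Alternatives used DESeq2 1.42.0, limma 3.58.1, other scalings and filters, chromosome medians taken out, and left-out libraries. The methods were tested on simulated data. Totals of split counts per gene had a median of 100% of all reads, with 5th to 95th percentiles of 74.7% to 120%. Genes named were the 10 members, Sirt7, a set of related genes, up to 3 called genes a list, and the 5 most like profiles. Thy1, Pdgfra, Dcn, Fn1, Vim, Ptprc, Lyz2, Usp18, Cd74, H2-Aa, H2-Ab1 and overlapping neighbours were named after their values were seen. The members, lists and rules were chosen with earlier results of these data known. The result of a gene among the transcription factors is not reported here.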

Additional observations from a re-analysis of the deposited data

Results flagged for a closer look

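H2-D1 was called between the groups in the allelic test, as were 23% of the 12984 genes tested. The log2 ratio of genome 1 to genome 2 counts was higher in knockout than in wild type by 1.14 (edgeR adjusted p = 0.0419), tested as an allele by group term, and each of the 3 knockout libraries lay above each of the 3 wild-type libraries. With chromosome medians taken out, limma gave 1.80 with an adjusted p of 0.128. The call was also lost without KO 2, without KO 9 or without any of the wild-type libraries (edgeR adjusted p-values of 0.0509 to 0.143).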

How the results depend on the processing

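Of 668 recomputed fold changes and allelic ratios of named genes, 573 kept their direction and their side of the threshold, 56 lost the call, 19 gained one and 20 changed sign. Most of the 668 belong to values not called in the main fit, which cannot lose a call. The 56 are therefore a larger share of the values that could lose one. Differences in genome 1 share have no test and were recomputed 42 times, each with 1 library left out. Of these, 1 changed sign (Tap2 without KO 9, a difference of 4.7 percentage points in place of -1.65). With no filter on low counts, Rela, Tyk2, Socs3, Pvr, Col3a1 and Mitf lost their calls, with adjusted p-values of 0.0569 to 0.0861. Genes called between knockout and wild type numbered 1123, and DESeq2 gave 2895, no filter on low counts 396, and chromosome medians taken out 664. Leaving out 1 library gave 45 to 2482, with at most 51 whenever a wild-type library was missing. Of the 10 members 0 were called, and DESeq2 called 4, chromosome medians taken out 1, and leaving out 1 library 0 to 3. Of the allelic ratios 2992 were called, and limma with chromosome medians taken out gave 110, with 0 of the members where the edgeR test had 1. Leaving out 1 library gave 1710 to 3822 allelic calls, and 0 to 2 among the members. The log2 fold change changed sign with chromosome medians taken out for H2-K1 (0.09), Tap2 (0.07), Psmb10 (-0.01), Irf2 (-0.10) and Cd274 (0.21), and with upper-quartile scaling for Cd274 (0.02). Leaving out 1 library at a time gave ranges on both sides of 0 for H2-K1 (-0.58 without KO 9 to 0.04 without KO 2), Psmb8 (-0.24 without KO 9 to 1.41 without KO 22), Psmb10 (-0.05 to 0.36), Psme1 (-0.07 to 0.13), H2-T23 (-0.14 to 0.28), Ezh2 (-0.04 to 0.10) and Cd274 (-0.23 to 0.34). The allelic log2 ratio of Tap2 changed sign with chromosome medians taken out (0.26) and ranged from -0.99 to 0.34 with 1 library left out. The causes were not tested. No paired analysis was possible because the knockout columns are numbered 2, 9 and 22 and the wild-type columns 1, 2 and 3, which share fewer than 2 numbers. Depth limits Psmb8, Psmb9 and Nlrc5, with at most 76 counts in any library.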
